A study of Mus musculus with 12 samples.

Results

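The 10 genes described here are Ankrd1, Ankrd23, Myot, Csrp3, Xirp2, Fhl1, Fhl2, Ldb3, Tcap and Myoz2, which encode proteins of the cardiac Z-disc, of titin's spring region and of the intercalated disc, several of them known to respond to stretch. They were taken by symbol from the 24918 genes of the deposited expression table, and all 10 were among the 14721 genes tested. The study sequenced total RNA of hearts from untreated C57BL/6 mice at 2 months of age, and its design text asks how the transcriptome differs when cardiomyocytes lack the glucocorticoid receptor. The sample titles form 4 groups with 3 libraries in each. Male cardioGRKO mice and female cardioGRKO mice carry GRloxP/loxP, loxP sites on both copies of the receptor gene Nr3c1, together with αMHCCre/+, a Cre recombinase driven by the promoter of the α-myosin heavy chain and so active in cardiomyocytes. Male floxed mice and female floxed mice carry the loxP sites without Cre. Cre and the deletion therefore cannot be told apart in any comparison of genotypes. The labels do not say whether the libraries of a group came from separate animals, so the spread behind the p-values is that of these libraries alone and could be technical.

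The Z-disc is the plate that anchors the actin filaments and the titin molecules of neighbouring sarcomeres, and it passes force sideways to the cell membrane. Several proteins bound there or to titin's elastic region also enter the nucleus or hold signalling enzymes, so the Z-disc is regarded as a sensor of mechanical load. In the heart, Ankrd1 is a widely used marker of stretch and pressure load, and inherited variants of several of the other genes cause cardiomyopathy or skeletal myopathy in humans.

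Values are the authors' log2 values, normalized between libraries, and a difference of 1 stands for a doubling. Sequencing depth cannot be read from them. Nr3c1, the deleted gene, averaged 10.85 in male cardioGRKO libraries and 11.41 in male floxed libraries, against 10.88 in the libraries labelled female cardioGRKO and 10.74 in those labelled female floxed. In females the difference of 0.14 (limma, adjusted p = 0.00038) runs against the labels, and every direction given below for females follows those labels. Were the female cardioGRKO and female floxed labels turned, each female difference would have the opposite sign and the same size. Nr3c1 was 0.67 higher in male floxed libraries than in those labelled female floxed (adjusted p = 1.4e-12). The cardioGRKO groups differed by -0.030, not called (adjusted p = 0.41). No group labelled female reached the male floxed level. With the labels turned Nr3c1 would fall by 0.14 in females, against a male difference of -0.56. Krt12, a keratin of the cornea, reached 13.13 and 13.98 in a pair of libraries, those labelled female floxed 1 and 2, against 7.16 to 8.49 in the other 10. All 14 epithelial markers were called lower in females and 0 in males. Female differences without that pair are given for Ankrd1, Ankrd23, Ldb3, Tcap and Xirp2, and other female values keep it unless stated. Without it the female median of the 10 genes was 0.060 in place of 0.077. Only 1 library of that group, labelled female floxed 3, then remains, so the values without the pair rest on it alone. The cardiomyocyte markers were present in every library. Their summed level, the log2 of the added linear values of 15 genes, lay between 21.17 and 21.34.

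All 10 genes differed between male cardioGRKO and male floxed hearts, and 8 of 10 differed between the libraries labelled female cardioGRKO and female floxed. In males 3 rose (Ankrd1, Ldb3 and Tcap) and 7 fell, and in females 6 rose (Ankrd1, Ankrd23, Myot, Csrp3, Xirp2 and Ldb3) and 2 fell (Fhl1 and Tcap). Of all genes tested, 27.4% were called in males and 29.3% in females (limma, adjusted p under 0.05). In males 12.8% were called higher and 14.6% lower, and in females 15.2% and 14%. The median difference of the 10 genes was -0.187 in males and 0.077 in females, against -0.002 and -0.000 over all genes tested, and their median size of difference was 0.235 and 0.187, against 0.041 and 0.043. The groups of libraries did not overlap for 10 of 10 genes in males, where 41.4% of all genes did not overlap, and for 8 of 10 in females, where the share was 40.7%. Groups of 3 libraries against 3 cannot give an exact two-sided permutation p below 0.1. Within a group the SD of a gene over its 3 libraries ranged from 0.00076 to 0.066. Most of the differences were small. Tested against a minimum fold of 1.2, only Ankrd1 and Myot were called in males and only Ankrd23 and Tcap in females, 2 of 10 in each. Of the 14721 genes tested, that test called 184 in males and 93 in females.

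**Figure D1:**
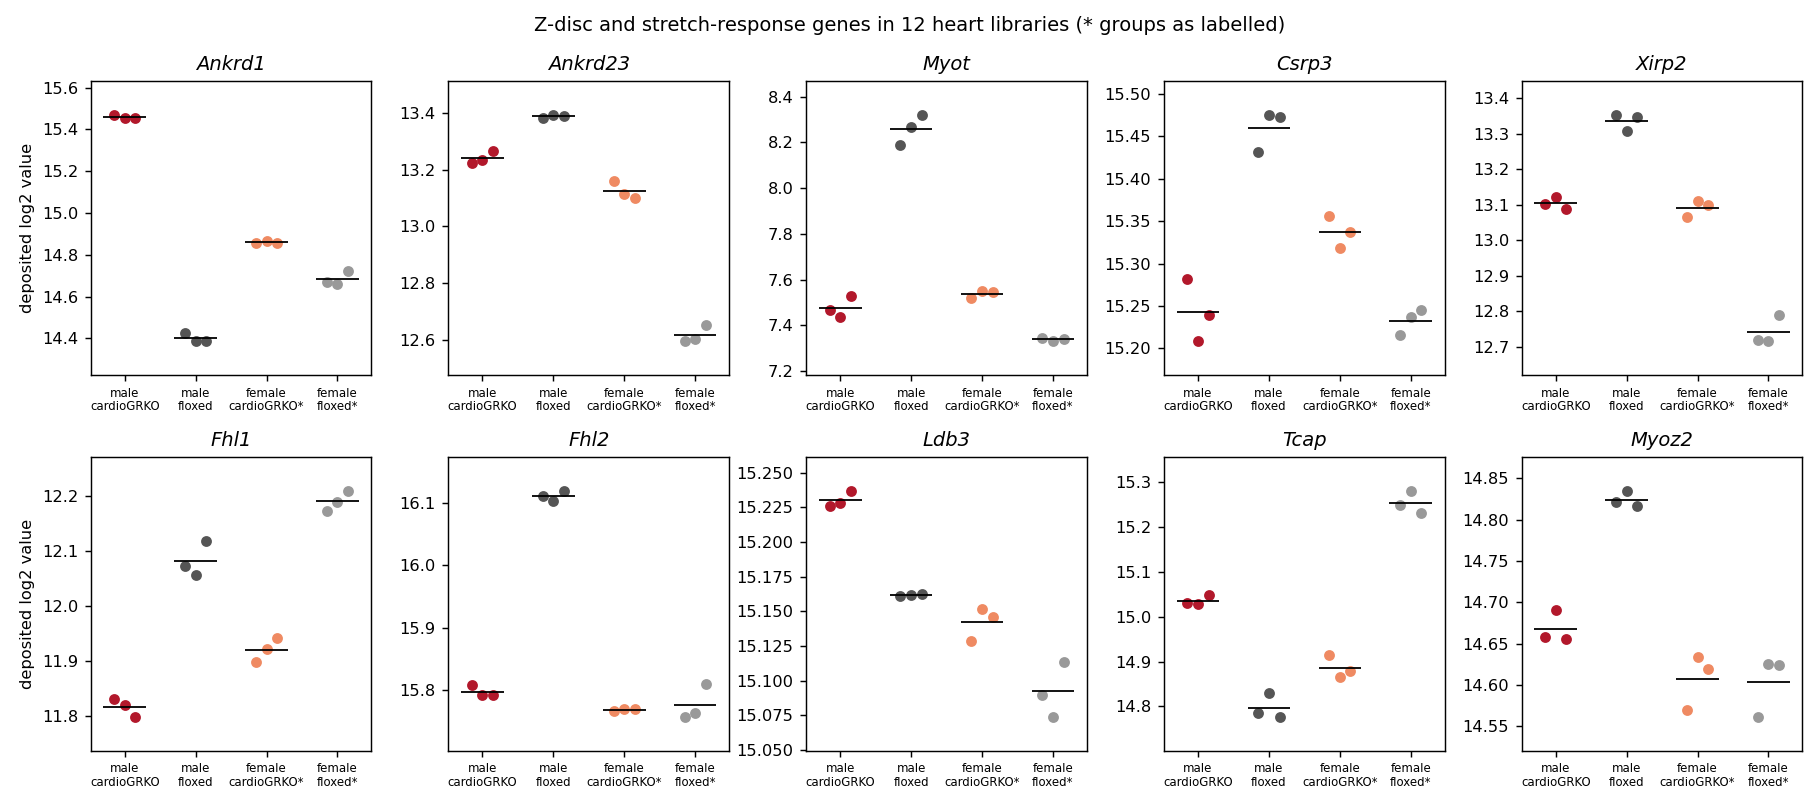
Deposited log2 value (vertical axes, each with its own range) of the 10 genes in each of the 12 libraries, with points for replicates 1 to 3 from left to right and a line at the mean of each group of 3; an asterisk marks groups named as labelled. Ankrd1 is highest in male cardioGRKO libraries at 15.45 to 15.47, Myot and Fhl2 are highest in male floxed libraries, and Ankrd23 and Xirp2 are lowest in the libraries labelled female floxed.

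Other cell types moved in the same comparisons, and their part in the results was not tested. Of 12 atrial cardiomyocyte markers 10 were called higher and 1 lower in male cardioGRKO hearts, and 12 of 12 were called lower in the libraries labelled female cardioGRKO. The summed level of these markers was 17.13 to 17.14 in male cardioGRKO libraries and 15.03 to 15.05 in male floxed libraries. It was 15.76 to 15.78 in the libraries labelled female cardioGRKO and 16.79 to 16.83 in those labelled female floxed. Atrial and ventricular muscle both express Z-disc genes. The summed level of 6 ventricular markers differed less, at 18.62 to 18.66 in male cardioGRKO and 18.80 in male floxed libraries. Under the female cardioGRKO and female floxed labels it was 18.76 to 18.78 and 18.75 to 18.79. Of these 6 markers 1 was called higher and 4 lower in males, and 3 higher and 0 lower in females. Their medians were -0.109 and 0.070, and 0.003 and 0.055 after quantile normalization. Skeletal muscle also expresses most of the 10 genes. Its markers Myh1, Myh2, Myh4, Tnnc2 and Myog did not reach the level required for testing, and the summed level of all 12, among them Acta1, which the heart also expresses, was 13.74 to 13.77 in male cardioGRKO libraries and 13.38 to 13.41 in male floxed libraries. It was 14.08 to 14.10 in the libraries labelled female cardioGRKO and 13.61 to 13.65 in those labelled female floxed. Of the 7 skeletal markers tested 6 were called higher in males, and 6 higher and 1 lower in females. In males the largest rise was that of Casq1, by 1.37 from 10.14 to 11.51, and Acta1, the most abundant, averaged 13.37 and 13.18. Actn3, Tnnt3 and Mylpf stood low, at 3.97, 5.61 and 6.42 in male cardioGRKO libraries. Of 15 cardiomyocyte markers 3 were called higher and 9 lower in males and 9 higher and 1 lower in females, with medians of -0.062 and 0.074. After quantile normalization these counts were 5 and 2 in males and 5 and 3 in females, with medians of 0.000. Of 12 endothelial markers 1 was called higher and 10 lower in males and 6 higher and 3 lower in females. Of 12 fibroblast markers 9 were called higher and 0 lower in males, and 3 higher and 5 lower in females. Of 8 epicardial markers 5 were called higher in males and 6 lower in females. Of 9 adipocyte markers 2 were called higher and 5 lower in males, and 8 higher and 0 lower in females, with a female median of 0.454. In bulk RNA a smaller share of a cell type and less RNA per cell cannot be told apart.

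The muscle ankyrin repeat proteins Ankrd1 and Ankrd23 both rose in females, as labelled, and moved apart in males. Ankrd1, also called CARP, binds the N2A element of titin and acts as a cofactor in the nucleus. It stood at 15.47, 15.45 and 15.45 in male cardioGRKO libraries and at 14.43, 14.39 and 14.39 in male floxed libraries. The male groups lay far apart, with no pair of libraries closer than 1.03. The rise of 1.06 (SE 0.016, limma, adjusted p = 2.1e-17) made Ankrd1 2.08-fold as high, and only 0.115% of the genes tested differed by more. In females, by the labels, the gene stood at 14.86 in all 3 cardioGRKO libraries and at 14.67, 14.66 and 14.72 in the floxed libraries. That rise was 0.18 (SE 0.016, adjusted p = 6.4e-07), and it was 0.14 without the libraries labelled female floxed 1 and 2. Male floxed libraries held the lowest Ankrd1 values of the series and male cardioGRKO libraries the highest.

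Ankrd23, also called DARP, binds the same titin element and is known in muscle as responsive to stretch and to metabolic state. Its values were 13.23, 13.24 and 13.27 in male cardioGRKO libraries, against 13.38, 13.39 and 13.39 in male floxed libraries. This small fall of 0.15 on the log2 scale (SE 0.020, adjusted p = 2.9e-05) separated the male groups completely. Among libraries labelled female the values were 13.16, 13.11 and 13.10 in cardioGRKO libraries and 12.60, 12.60 and 12.65 in floxed libraries. The gene rose there by 0.51 (SE 0.020, adjusted p = 1.8e-11), or 1.42-fold, the largest change of the 10 genes in females. Without the libraries labelled female floxed 1 and 2 the rise was 0.47.

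Promoter windows of both ankyrin genes are printed because Ankrd1 gave the largest change in males and Ankrd23 the largest in females. Of the 10 genes, 8 have such windows in the RefSeq sequences of build GRCm38.p6, each reaching from 250 bases before the gene's start to 50 after it. Some genes have several windows, which can overlap, so the 8 genes have 13 windows, and shares below are of genes with a match in at least 1 window, among all 27025 genes with windows. The windows were searched on both strands for the MCAT element CATTCC, to which TEAD factors bind, the CArG box of the serum response factor, the MEF2 box, the TATA box TATAAA, the E box CAGCTG of basic helix-loop-helix factors, the half-site AGAACA of the glucocorticoid receptor and the full palindromic element of that receptor. The half-site lies within the full element. The Ankrd1 window (chr19:36119795-36120094, minus strand) holds the MCAT letters at 123 and 210 bases before the start, both on the opposite strand and so read as ggaatg. The Ankrd23 window listed first (chr1:36536507-36536806, minus strand) holds them 36 bases after the start. The other Ankrd23 window, not printed, holds them 120 bases before its own start. Capitals mark the matches in the printed windows.
Ankrd1: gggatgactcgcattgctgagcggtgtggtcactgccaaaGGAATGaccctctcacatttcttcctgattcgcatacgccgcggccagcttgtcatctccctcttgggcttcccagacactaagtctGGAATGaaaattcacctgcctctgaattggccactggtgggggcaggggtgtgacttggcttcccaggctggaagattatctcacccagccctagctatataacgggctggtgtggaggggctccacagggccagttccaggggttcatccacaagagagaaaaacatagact
Ankrd23: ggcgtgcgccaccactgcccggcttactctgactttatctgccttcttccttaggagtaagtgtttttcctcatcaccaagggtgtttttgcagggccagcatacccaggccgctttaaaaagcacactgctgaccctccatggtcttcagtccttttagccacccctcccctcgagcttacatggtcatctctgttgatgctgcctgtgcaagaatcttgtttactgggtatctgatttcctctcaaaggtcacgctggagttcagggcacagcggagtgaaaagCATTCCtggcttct
MCAT letters occurred in the windows of 2 of the 8 genes, Ankrd1 and Ankrd23, and in those of 16.6% of all genes with windows. The half-site occurred in those of 2 of 8, Csrp3 and Ldb3, against 21.3% of all genes, and the full element in 0 of 8, against 0.0111%. These matches describe the letters of the windows only.

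The LIM domain genes Csrp3, Fhl1 and Fhl2 fell in male cardioGRKO hearts, while Ldb3 rose slightly. Fhl2 encodes a protein of LIM domains alone that binds titin's N2B region and is known to restrain calcineurin and ERK signalling. It stood at 15.81, 15.79 and 15.79 in male cardioGRKO libraries, against 16.11, 16.10 and 16.12 in male floxed libraries. Its fall to 80.5% of the male floxed level, -0.31 on the log2 scale (SE 0.014, limma, adjusted p = 3.1e-11), was the second largest of the 10 genes. In females the groups overlapped, with 15.77 in all 3 libraries labelled cardioGRKO and 15.76, 15.76 and 15.81 in those labelled floxed. The difference there was -0.008, with a 95% confidence interval of -0.04 to 0.02, and was not called (adjusted p = 0.70). After quantile normalization it was 0.067 and called.

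The first listed Fhl2 window (chr1:43196712-43197011, minus strand) is printed because it carries a CArG box, which 3 of the 8 genes hold (Fhl1, Fhl2 and Ldb3), against 1.81% of all genes. The box lies 96 bases before the start and reads the same class of letters on both strands. Capitals mark it and, nearer to the start, the letters TATAAA on the opposite strand, which 2 of the 8 genes (Fhl1 and Fhl2) and 15.7% of all genes hold. The other Fhl2 window, not printed, also holds a CArG box, 31 bases before its own start. The E box was found for 1 of the 8, Myoz2, against 18.3% of all genes.
Fhl2: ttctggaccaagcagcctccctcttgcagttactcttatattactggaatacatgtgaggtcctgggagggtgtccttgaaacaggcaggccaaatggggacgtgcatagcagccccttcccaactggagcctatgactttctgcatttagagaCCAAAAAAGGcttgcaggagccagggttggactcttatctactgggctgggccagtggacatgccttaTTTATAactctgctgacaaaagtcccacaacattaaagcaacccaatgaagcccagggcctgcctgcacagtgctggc

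Fhl1, which binds the same region of titin and is known to take part in the hypertrophic response, was lower in the cardioGRKO libraries of both sexes, as labelled. It lies on the X chromosome. The values were 11.83, 11.82 and 11.80 in male cardioGRKO libraries, against 12.07, 12.06 and 12.12 in male floxed libraries. In the libraries labelled female they were 11.90, 11.92 and 11.94 in cardioGRKO libraries and 12.17, 12.19 and 12.21 in floxed libraries. The cardioGRKO groups lay below their floxed groups without overlap, by -0.26 in males (SE 0.021, adjusted p = 5.0e-08) and by -0.27 in females (SE 0.021, adjusted p = 7.2e-08). By the labels it was the only one of the 10 genes called lower in both comparisons, and it fell to 83.2% and 83.0% of the floxed level. With the female labels turned Fhl1 would be -0.26 in males and 0.27 in females, and Ankrd23, Csrp3, Myot and Xirp2 would be the 4 genes lower in both.

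Csrp3, or muscle LIM protein, is bound to telethonin and α-actinin at the Z-disc and is needed for the normal shape of the heart in mice. It stood at 15.28, 15.21 and 15.24 in male cardioGRKO libraries, against 15.43, 15.48 and 15.47 in male floxed libraries. The fall of 0.22 on the log2 scale (SE 0.018, adjusted p = 1.1e-07) left 86.0% of the male floxed level. In females the order of the groups was the opposite, at 15.36, 15.32 and 15.34 under the cardioGRKO label and 15.22, 15.24 and 15.25 under the floxed label. The rise there was 0.10 (SE 0.018, adjusted p = 0.00041). After quantile normalization it was 0.048 and no longer called (adjusted p = 0.089).

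Ldb3, also called Cypher or ZASP, links α-actinin to protein kinase C through a PDZ and LIM domains. It varied least of the 10 genes, over 0.16 across the 12 libraries. The values were 15.23, 15.23 and 15.24 in male cardioGRKO libraries, against 15.16 in all 3 male floxed libraries, a rise of 0.068 (SE 0.013, adjusted p = 0.00079). Under the female labels they were 15.13, 15.15 and 15.15 in cardioGRKO libraries, against 15.09, 15.07 and 15.11 in floxed libraries, a difference of 0.050 (adjusted p = 0.0097). The female call did not hold throughout. It was lost in a fit within 1 sex (adjusted p = 0.059), and the sign of the difference turned after quantile normalization, at -0.045. Without the libraries labelled female floxed 1 and 2, where 1 floxed library remains, the difference was 0.028.

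The actin and titin binding proteins of the Z-disc moved in different directions. Myot encodes myotilin, which crosslinks actin and binds α-actinin and filamin. Its values were 7.47, 7.44 and 7.53 in male cardioGRKO libraries, against 8.19, 8.27 and 8.32 in male floxed libraries. No male cardioGRKO library came within 0.66 of a male floxed one. The fall was to 58.2% of the male floxed level (-0.78, SE 0.033, limma, adjusted p = 2.1e-11), the largest of the 10 genes. Among libraries labelled female Myot stood at 7.52, 7.55 and 7.54 in cardioGRKO libraries and at 7.34, 7.33 and 7.34 in floxed libraries. It was higher there by 0.20 (SE 0.033, adjusted p = 0.00026). The 2 cardioGRKO groups and the group labelled female floxed lay near each other, and male floxed libraries lay above all of them.

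Tcap encodes telethonin, the cap that joins the ends of 2 titin molecules at the Z-disc, and it went against most of the other genes. It stood at 15.03, 15.03 and 15.05 in male cardioGRKO libraries, against 14.78, 14.83 and 14.78 in male floxed libraries. In males this was a rise of 0.24 (SE 0.018, adjusted p = 2.6e-08), or 1.18-fold. Under the female labels it stood at 14.91, 14.87 and 14.88 in cardioGRKO libraries and at 15.25, 15.28 and 15.23 in floxed libraries. There it fell to 77.5% of the floxed level (-0.37, SE 0.018, adjusted p = 2.4e-10), and the difference was -0.35 without the libraries labelled female floxed 1 and 2.

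Myoz2 encodes calsarcin-1, which ties calcineurin to the Z-disc and is known to restrain it in mice. Its values were 14.66, 14.69 and 14.66 in male cardioGRKO libraries, against 14.82, 14.84 and 14.82 in male floxed libraries, a fall of 0.16 on the log2 scale (SE 0.020, adjusted p = 1.2e-05). In females, by the labels, they were 14.57, 14.63 and 14.62 in cardioGRKO libraries and 14.56, 14.63 and 14.62 in floxed libraries. These groups overlapped, and the difference of 0.004 had a 95% confidence interval of -0.04 to 0.05 (adjusted p = 0.92). After quantile normalization it was -0.068 and called.

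Xirp2, also called myomaxin, encodes an actin-binding protein with Xin repeats that lies at the intercalated disc and near the Z-disc and is known as a target of MEF2A in mouse heart. It stood at 13.10, 13.12 and 13.09 in male cardioGRKO libraries, against 13.35, 13.31 and 13.35 in male floxed libraries. Under the female labels it stood at 13.07, 13.11 and 13.10 in cardioGRKO libraries and at 12.72, 12.72 and 12.79 in floxed libraries. The cardioGRKO groups of the 2 sexes overlapped, with the male floxed group above and the group labelled female floxed below them. Xirp2 thus fell by 0.23 on the log2 scale in males (SE 0.022, limma, adjusted p = 4.0e-07) and rose by 0.35 in females (SE 0.022, adjusted p = 5.3e-09). Without the libraries labelled female floxed 1 and 2 the female rise was 0.30. The Xirp2 window (chr2:67445752-67446051, plus strand) is printed for its MEF2 box, in capitals, 74 bases before the start. Such a box was found for 2 of the 8 genes, Xirp2 and Myoz2, against 0.636% of all genes.
Xirp2: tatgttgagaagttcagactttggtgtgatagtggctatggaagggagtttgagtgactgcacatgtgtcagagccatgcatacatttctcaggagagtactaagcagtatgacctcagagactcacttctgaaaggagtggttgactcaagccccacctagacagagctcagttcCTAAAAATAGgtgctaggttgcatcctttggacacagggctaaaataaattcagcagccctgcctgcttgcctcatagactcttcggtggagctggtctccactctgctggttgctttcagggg

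**Figure D2:**
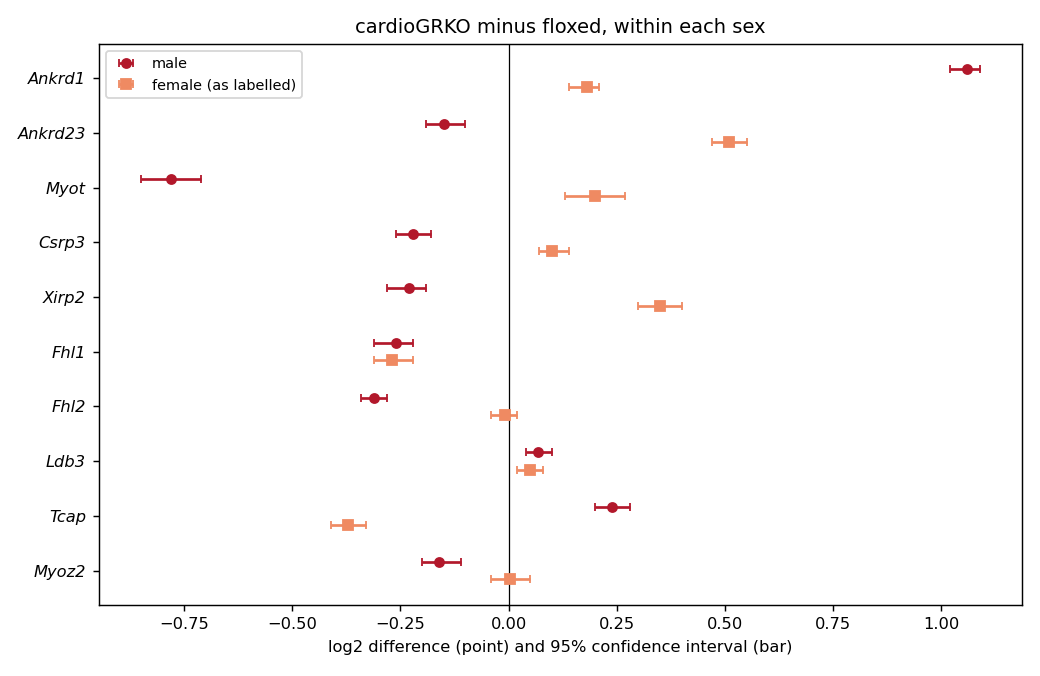
Log2 difference between cardioGRKO and floxed libraries (horizontal axis) of each of the 10 genes in males (circles) and in the libraries labelled female (squares), with 95% confidence intervals from limma. Ankrd1 lies at 1.06 and 0.18, Fhl1 at -0.26 and -0.27, and Ankrd23, Myot, Csrp3, Xirp2 and Tcap lie on opposite sides of 0.

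The male and the female change were then compared directly. They differed for 8 of the 10 genes, where 31.3% of all genes tested were called, 14.3% higher and 17% lower. Of these 8, Ankrd1 and Tcap had the higher value in males and the other 6 the lower. For 5 genes the calls in the 2 sexes had opposite signs, Ankrd23, Csrp3, Myot and Xirp2 being lower in males and higher in females and Tcap the reverse. This rests on the female labels, which Nr3c1 goes against. With them turned, these 5 genes would have the same sign in both sexes, and Ankrd1, Ldb3 and Fhl1 would have opposite signs. The difference of the changes would be called for 10 of 10 genes, 4 higher and 6 lower, and for 3620 of the 14721 genes tested. It would then be 1.23 for Ankrd1, -0.58 for Myot and -0.53 for Fhl1 (adjusted p = 1.1e-15, 1.2e-07 and 1.3e-09), and its sign would turn for Ankrd23 (0.36), Xirp2 (0.12) and Tcap (-0.13). The difference of the changes (male minus female) was -0.98 for Myot (SE 0.047, adjusted p = 8.2e-11), 0.88 for Ankrd1 (SE 0.023, adjusted p = 3.3e-14) and -0.66 for Ankrd23 (SE 0.029, adjusted p = 2.7e-11). It was 0.61 for Tcap (SE 0.025, adjusted p = 1.5e-11) and -0.58 for Xirp2 (SE 0.031, adjusted p = 3.3e-10). Fhl1 and Ldb3 were not called, with differences of 0.005 (95% confidence interval -0.06 to 0.07) and 0.019 (-0.02 to 0.06). Under quantile normalization the difference was 0.18 for Ldb3 and called, and -0.016 for Myoz2 and no longer called. With libraries centred on the cardiomyocyte markers it was 0.083 for Ldb3 and called, and -0.095 for Myoz2 and not called (adjusted p = 0.063).

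As labelled, the floxed groups differed more between the sexes than the cardioGRKO groups. With the female labels turned, 9 of 10 genes would be called between the floxed groups, and 4562 of the 14721 genes tested. Between the cardioGRKO groups 8 of 10 would be called, and 5183 of the genes tested, so the order over all genes would be the reverse. Myot and Xirp2 would then be called between the cardioGRKO groups (0.14 and 0.36, adjusted p = 0.0039 and 2.6e-09). Between male floxed libraries and those labelled female floxed all 10 genes were called, 7 higher and 3 lower in males, where 44.2% of all genes were called, 22.7% higher and 21.5% lower. Quantile normalization turned the sign of Ldb3 there (-0.12) and ended the call of Myoz2 (0.015, adjusted p = 0.61). Between the cardioGRKO groups 7 of 10 were called, 5 higher and 2 lower in males, where the share of all genes was 24.2%, 12.4% higher and 11.9% lower. Libraries of the sexes did not overlap for 10 of 10 genes between the floxed groups, where 50.8% of all genes did not overlap, and for 8 of 10 between the cardioGRKO groups, where the share was 40.1%. The median size of the difference over the 10 genes was 0.309 between the floxed groups, against 0.058 over all genes, and 0.091 between the cardioGRKO groups, against 0.040. Myot was 0.92 higher in male floxed libraries (SE 0.033, adjusted p = 1.3e-12), whereas the cardioGRKO groups differed by -0.060 (95% confidence interval -0.13 to 0.01, adjusted p = 0.21). Likewise Xirp2 differed by 0.59 between the floxed groups (adjusted p = 1.8e-12) and by 0.012 between the cardioGRKO groups (adjusted p = 0.75), and Fhl2 by 0.33 (adjusted p = 6.7e-12) and 0.029 (adjusted p = 0.14). After quantile normalization Fhl2 was -0.10 between the cardioGRKO groups and called (adjusted p = 0.0032). Ankrd1 differed from these, being 0.60 higher in male cardioGRKO libraries than in those labelled female cardioGRKO (SE 0.016, adjusted p = 7.4e-14) and 0.28 lower in male floxed libraries than in those labelled female floxed (-0.28, SE 0.016, adjusted p = 5.8e-10). The call of Myoz2 between the cardioGRKO groups (0.061, adjusted p = 0.035) was lost without any 1 of male cardioGRKO 1, 2 or 3 or of the libraries labelled female cardioGRKO 1 or 3, at 0.066, 0.049, 0.067, 0.042 and 0.066. The male and the female comparison share no libraries, but the comparisons across sexes reuse those of the comparisons across genotypes.

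**Figure D3:**
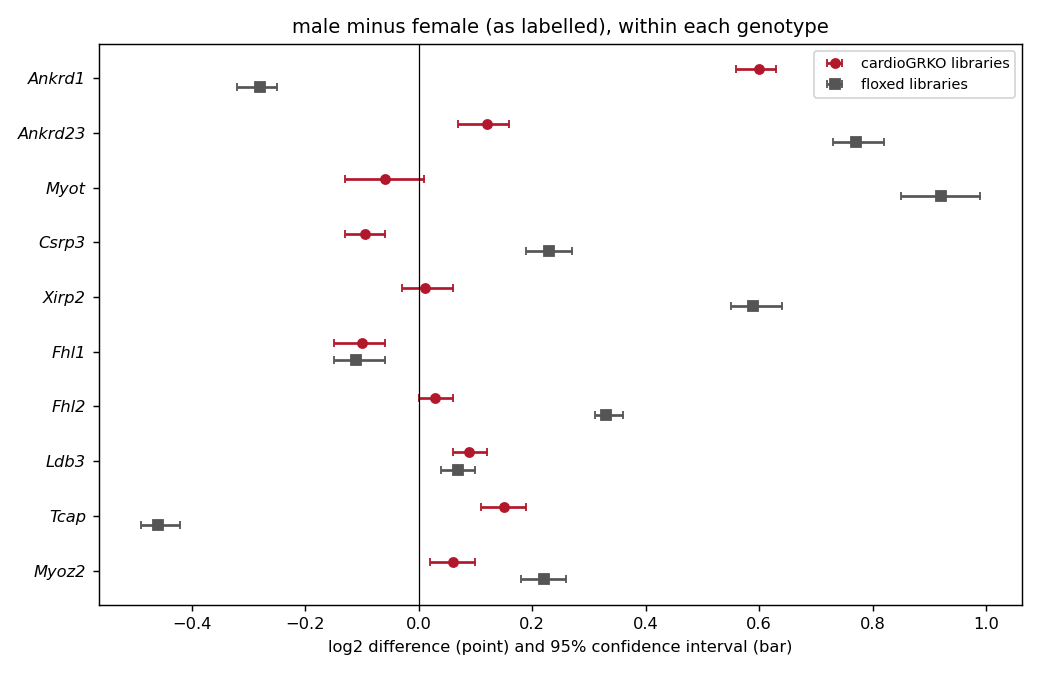
Log2 difference between male libraries and libraries labelled female (horizontal axis) of each of the 10 genes among cardioGRKO libraries (circles) and among floxed libraries (squares), with 95% confidence intervals from limma. Apart from Ankrd1 at 0.60, the cardioGRKO differences lie between -0.10 and 0.15, while the floxed differences reach from -0.46 for Tcap to 0.92 for Myot.

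Per kilobase of exon, with exon lengths of GENCODE M21, the 10 genes covered a wide range of abundance. The linear level per kilobase in male cardioGRKO libraries was 35429 for Tcap, 30028 for Fhl2 and 15610 for Ankrd1, against 30037, 37318 and 7502 in male floxed libraries. Myot was the least abundant, at 80.7 in male cardioGRKO and 139 in male floxed libraries, and Xirp2, with 11979 bases of exon the longest, came next at 735 and 863. By this level Ankrd1 ranked 3rd of the 10 genes in male cardioGRKO and 5th in male floxed libraries. Fhl2 and Tcap exchanged ranks 1 and 2. The gene totals do not separate the known isoforms of Ldb3 and Fhl1.

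Of the 10 genes 5, Ankrd1, Ankrd23, Myot, Xirp2 and Tcap, ranged by more than 0.5 across the 12 libraries, and for each the 3 tested genes with the most similar profile were listed. Pearson's r over the 12 libraries is given as a description, since the libraries form 4 groups and share their normalization. For Myot these genes were Nr3c1, the deleted receptor gene (r = 0.995), Acss1, a mitochondrial acetyl-CoA synthetase (0.994), and Bdh1, an enzyme of ketone body use (0.993). Nr3c1 and Myot shared the order of the 4 groups, with male floxed highest, the 2 cardioGRKO groups close together and the group labelled female floxed lowest. Ankrd1 was most like Mical2, an actin-oxidizing enzyme (0.986), Cpe, a carboxypeptidase that trims peptide hormones (0.984), and Myom2, a myomesin of the M-band (0.977). Ankrd23 was most like Lbh (0.995), Nid1, a basement membrane protein (0.990), and Ehd2 (0.988). Xirp2 was most like Kdr, the receptor of vascular endothelial growth factor (0.992), Rcan2, a regulator of calcineurin (0.990), and Rnf10 (0.990). For Tcap they were Shd (0.979), Iffo1 (0.978) and Ahsg (0.977). Among the 10 genes themselves the closest pairs were Myot with Fhl2 and Ankrd23 with Xirp2 (0.97 each), and Tcap ran opposite to Xirp2 (-0.94).

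Other Z-disc genes spanned -0.22 to 0.27 in males and -0.29 to 0.32 in females. Of 29 tested, 9 were called higher and 11 lower in males (median -0.013), and 15 higher and 4 lower in females (median 0.075). The male median turned to 0.035 when libraries were centred on the cardiomyocyte markers and to 0.003 after quantile normalization. In males Ablim1, which binds actin, fell by 0.22 (adjusted p = 5.2e-08), and Synpo2l and Smtnl2, relatives of synaptopodin and smoothelin, rose by 0.26 and 0.27 (adjusted p = 1.4e-07 and 4.5e-07). In females Flnc, the muscle filamin, and Bag3, its co-chaperone, rose by 0.32 each (adjusted p = 3.0e-09 and 7.8e-09), and Cryab, the chaperone αB-crystallin, by 0.27 (adjusted p = 7.8e-09). Against a minimum fold of 1.2 none of the 29, 0 in each sex, was called. Actn2, the α-actinin to which Myot, Ldb3 and Myoz2 bind, rose by 0.038 in males and 0.074 in females (adjusted p = 0.043 and 0.00053). Xirp1, the relative of Xirp2, was -0.21 in males and 0.13 in females (adjusted p = 1.3e-06 and 0.00036), the same signs as Xirp2. Actn2 and Xirp1 were chosen after their values were seen.

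At the intercalated disc and the costamere, the membrane attachments of the Z-disc, 7 of 29 genes were called higher and 14 lower in males (median -0.055), and 11 higher and 4 lower in females (median 0.032). Dmd, the gene of dystrophin, and Dsp, the gene of desmoplakin, changed by -0.30 and -0.16 in males (adjusted p = 5.1e-08 and 2.4e-06), and Tln2, a talin, rose by 0.19 (adjusted p = 1.8e-05). In females Nrap, a scaffold of growing myofibrils, and Dag1, the gene of dystroglycan, rose by 0.20 and 0.17 (adjusted p = 1.8e-07 and 7.5e-07), and Ctnna1, an α-catenin, changed by -0.15 (adjusted p = 4.6e-06). With libraries centred on the cardiomyocyte markers 8 were called higher and 6 lower in males, and 5 higher and 4 lower in females. After quantile normalization the counts were 8 and 10 in males and 7 and 6 in females.

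Other genes known to respond to stretch or hypertrophy were called higher in 8 of 19 cases and lower in 2 in males (median 0.045), and higher in 4 and lower in 9 in females (median -0.065). Nppa, the atrial natriuretic peptide and itself an atrial marker, rose by 2.84 in males (adjusted p = 6.2e-23) and changed by -1.05 in females (adjusted p = 1.4e-16). Nppb, the B-type natriuretic peptide, rose by 1.09 in males (adjusted p = 7.4e-16), close in size to Ankrd1, and by 0.49 in females (adjusted p = 7.7e-11). Acta1, the skeletal actin that the loaded heart expresses, rose by 0.19 and 0.42 (adjusted p = 3.8e-07 and 2.7e-11). The immediate early gene Fos changed by 0.22 in males and -0.74 in females (adjusted p = 2.9e-06 and 2.1e-12). As labelled, Ankrd1, Nppb and Acta1 were called higher in both sexes, whereas the calls of Nppa and of Fos had opposite signs. With the female labels turned, Ankrd1, Nppb and Acta1 would have opposite signs, and Nppa and Fos the same sign in both sexes. Of the 19 genes, 9 in males and 6 in females were not called. Acta1 is also in the list of skeletal muscle markers.

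The YAP and TEAD list holds targets, to which Ankrd1 is also known to belong, together with the factors Yap1, Wwtr1, Tead1, Tead4 and Vgll4. Its genes were called higher in 4 and lower in 4 of 19 cases in males (median -0.006). In females 3 were called higher and 4 lower (median -0.030). Ctgf, a matrix-associated growth factor, rose by 0.91 in males (adjusted p = 3.8e-14) and changed by -0.42 in females (adjusted p = 1.7e-09). Amotl1, which binds YAP, changed by -0.20 and 0.17 (adjusted p = 2.8e-06 and 3.0e-05), Dock5 by -0.23 in males (adjusted p = 1.7e-05) and Cyr61 by -0.24 in females (adjusted p = 2.3e-05). The SRF and MRTF list holds targets together with the factors Srf, Mkl1, Mkl2 and Myocd. Its genes were called higher in 4 and lower in 9 of 20 cases in males (median -0.027). With libraries centred on the cardiomyocyte markers the male counts were 5 higher and 4 lower. In females 4 were called higher and 7 lower (median -0.043). Myl9, a regulatory myosin light chain of smooth muscle, rose by 0.41 in males and changed by -0.52 in females (adjusted p = 6.9e-07 and 7.0e-08). Acta2, the actin of smooth muscle, rose by 0.33 in males (adjusted p = 1.9e-09) while Actg1, a cytoplasmic actin, changed by -0.32 (adjusted p = 1.7e-07). In females Srf rose by 0.15 (adjusted p = 4.8e-05) and Tagln, a smooth muscle protein, changed by -0.16 (adjusted p = 0.00022). The summed level of 10 smooth muscle and pericyte markers, 3 of which are in the SRF list, was 15.49 to 15.51 in male cardioGRKO libraries and 15.50 to 15.52 in male floxed libraries, while 1 of the 10, Acta2, was called higher and 6 lower (median -0.171). Under the female labels the sum was 15.72 in cardioGRKO libraries and 15.76 to 15.80 in floxed libraries, with 3 called higher and 5 lower (median -0.061).

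Among calcineurin and NFAT genes, the pathway that Myoz2 and Fhl2 are known to restrain, 1 of 17 was called higher and 4 lower in males (median -0.043), and 4 higher and 4 lower in females (median 0.024). The male median was 0.006 with libraries centred on the cardiomyocyte markers. Rcan2, a calcineurin regulator, changed by -0.24 in males and 0.27 in females (adjusted p = 3.0e-08 and 1.4e-08). The class II histone deacetylases Hdac4 and Hdac9 changed by 0.23 and -0.17 in males (adjusted p = 1.4e-05 and 0.00099). In females Cabin1, a calcineurin inhibitor, changed by -0.10 and Mef2d, a MEF2 factor, by 0.090 (adjusted p = 0.0032 and 0.010).

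**Figure D4:**
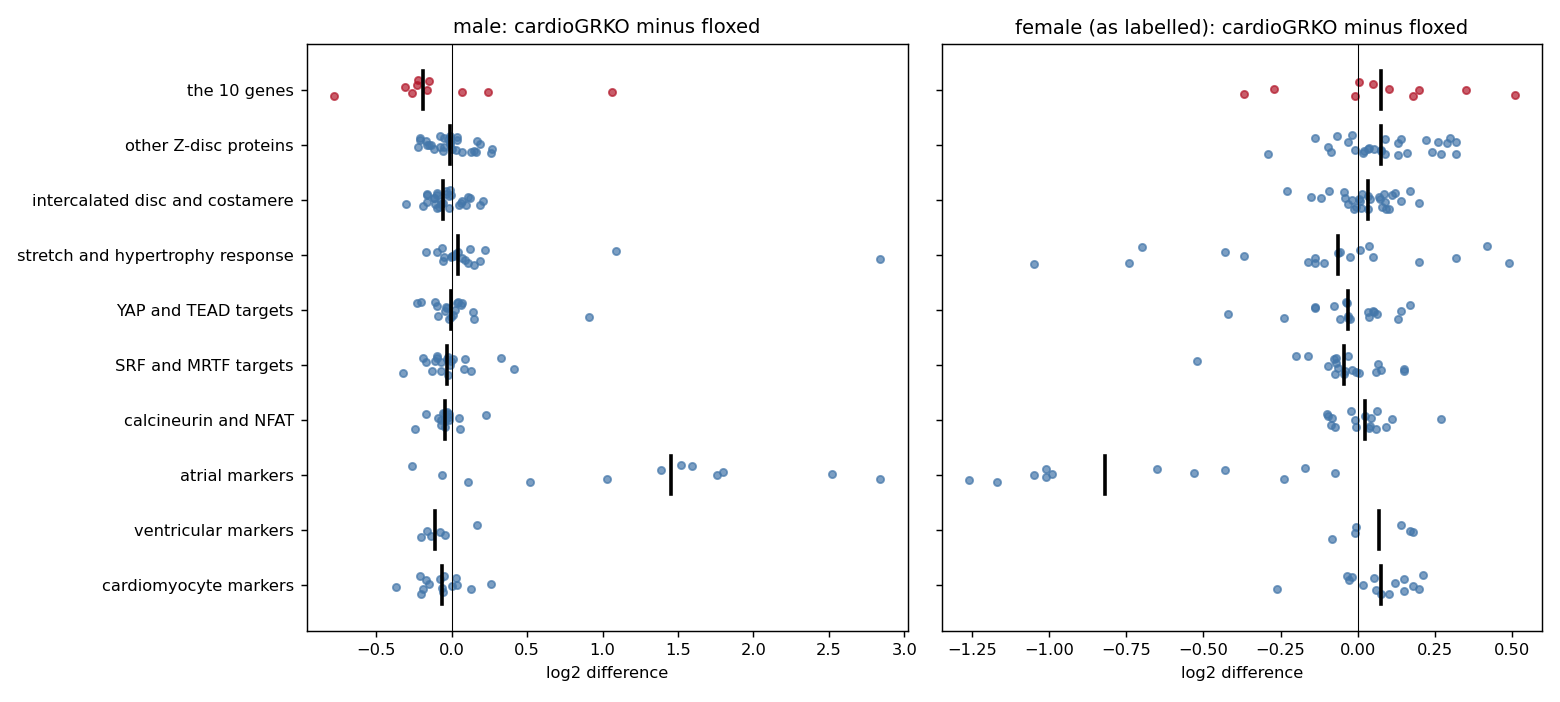
Log2 difference between cardioGRKO and floxed libraries (horizontal axes) of the tested genes (points) of each list, in males on the left and in libraries labelled female on the right, with the median of each list as a black bar. The 10 genes have medians of -0.187 and 0.077, and the atrial markers stand apart at 1.458 and -0.820.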

How the data were processed

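The members and gene lists, and the motifs searched, were chosen with earlier results of these data known. RNA of 12 heart libraries was analysed, 3 in each of 4 groups taken from the sample titles; the genotype field of the labels reads the same for all 12. The submitters' processing notes name Trim Galore, TopHat2, HTSeq and DESeq2 and the build mm9; versions are not given in the sources used here. The values deposited by the authors are on a log2 scale, named as DESeq-normalized in the labels; they reach down to -2.20, and 4895 genes are listed at 0 in all libraries. Their form resembles a shrunken logarithm, which no header states. Were it one, folds of low genes such as Myot would be understated. The spread between libraries would be shrunken too, with an effect on SEs and p-values that was not tested. Counts and depth are unknown.

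Genes with at least log2 of 10 in at least 3 libraries were tested (14721). One mean per group was fitted over 12 libraries (8 residual degrees of freedom) with limma 3.58.1 in R 4.3.3 with an intensity trend, and p-values were adjusted by Benjamini-Hochberg over all genes tested, called under 0.05. Contrasts were cardioGRKO minus floxed in each sex, the male change minus the female change, and male minus female within each genotype. The fit was tested on simulated data. Lists were described by counts and medians without a set test. Named from each list were up to 3 called genes with the smallest p in each sex, and other genes only where stated. RefSeq windows are of GRCm38.p6 and served for sequence only. Alternatives are given below; centring on 15 cardiomyocyte markers and turning the female genotype labels were added after the data were seen. Libraries with the same replicate number showed correlations of their deviations from the group means between -0.11 and 0.15, so the numbers were not taken as pairs.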

Additional observations from a re-analysis of the deposited data

Results flagged for a closer look

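The change between cardioGRKO and floxed libraries differed between males and females for 8 of the 10 genes. This is by the test of the difference itself (limma, adjusted p under 0.05), which called 31.3% of all genes tested. The male change minus the female change was 0.88 for Ankrd1, -0.66 for Ankrd23, -0.98 for Myot, -0.32 for Csrp3, -0.58 for Xirp2, -0.31 for Fhl2, 0.61 for Tcap and -0.16 for Myoz2. Adjusted p ranged from 3.3e-14 for Ankrd1 to 0.00031 for Myoz2. Against a minimum fold of 1.2 the difference was called for 5 of the 10 genes and for 420 of the 14721 genes tested. Beside these values stands Nr3c1, for which the male change minus the female change was -0.70 and which went against the labels in females. With the female labels turned the difference of the changes would be called for 10 of the 10 genes and for 3620 of the 14721 genes tested. It would then be -0.53 for Fhl1 in place of 0.005 and 0.12 for Xirp2 in place of -0.58.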

How the results depend on the processing

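Counts of the 10 genes called in either direction stayed within 1.5 times the reported ones under all alternatives but a test against a minimum fold of 1.2. With 10 genes in all, no rise could pass that limit, and a loss of a few genes stays within it, so it is a weak check. Split by direction, quantile normalization called 5 higher and 4 lower in females (6 and 2 as reported), 3 and 5 for the difference (2 and 6), 5 and 4 between floxed groups (7 and 3) and 4 and 3 between cardioGRKO groups (5 and 2). The test against a minimum fold of 1.2 called 2 genes in males and 2 in females. It called 5 for the difference of the changes, 5 between the floxed groups and 1 between the cardioGRKO groups. Of all genes tested it called 184, 93, 420, 386 and 117 in the same order. Without the libraries labelled female floxed 1 and 2, 2734 of all genes were called in females in place of 4309. Centring on the cardiomyocyte markers called 2662 in females, and 2125 in place of 3568 between the cardioGRKO groups. It moved the share of higher among called genes to 77.3% in males (46.6% as reported), 41.2% in females (52.0%), 74.9% for the difference (45.6%) and 16% between floxed groups (51.4%).

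Signs turned after quantile normalization for Fhl2, Ldb3 and Myoz2 in females (0.067, -0.045 and -0.068), for Ldb3 between floxed groups (-0.12), and for Fhl2 and Myoz2 between cardioGRKO groups (-0.10 and -0.0013). Centring on the cardiomyocyte markers turned Ldb3 between floxed groups (-0.0051). The cause was not tested. Turning the female genotype labels, tried after the data were seen, turned the difference of the changes for Ankrd23, Xirp2, Fhl1 and Tcap (0.36, 0.12, -0.53 and -0.13), Fhl1 between floxed groups (0.16), and Myot, Csrp3 and Tcap between cardioGRKO groups (0.14, 0.010 and -0.22). Of 960 values of single genes under alternatives, 897 kept direction and call or were called in neither. Of the rest 44 lost the call, 4 gained it and 15 turned. Refits without 1 library are among the 960. The female differences with the female labels turned are not, and each of those would have the opposite sign. The female call of Ldb3 was also lost in a fit within 1 sex (adjusted p = 0.059). Leaving out each library in turn called 10 genes in males and 8 in females each time, and 6 to 7 between the cardioGRKO groups. With the replicate number as a block 10 genes were called in males and 8 in females, and no call of the 10 genes changed. Depth cannot be judged from normalized values.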
